A study of Oryza sativa with 12 samples.

Results

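In rice seedlings of a line labelled f3h, the transcript changes against the wild type (WT) were compared between root and leaf. The question for each gene was whether the difference between f3h root and WT root was the same as the difference between f3h leaf and WT leaf. That question was put as an interaction, the log2 effect of f3h in root minus the log2 effect of f3h in leaf. A positive interaction means a more positive f3h effect in root, and a negative one means a more positive f3h effect in leaf. All 12 RNA-seq libraries of the series entered, and 21775 of the 37960 genes in the count table were tested because they had at least 10 counts summed in each of the 4 groups.

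The 4 groups were f3h root, WT root, f3h leaf and WT leaf, with 3 libraries each. WT was the cultivar ZH11, and all plants were 1 month old and grown in Kimura nutrient solution without soil. The labels call the f3h line a knockdown, whereas the description of the series speaks of CRISPR mutants, and neither names the targeted locus or the number of lines. The sources used here do not tell if separate plants went into the 3 libraries of a group, and p-values therefore cover only the scatter among libraries, possibly technical. Each library is of bulk root or leaf, so that a lower value can mean fewer cells of a type or less RNA per cell, and these cannot be told apart.

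Flavanone 3-hydroxylase is an enzyme of flavonoid synthesis and acts on the flavanones that chalcone synthase and chalcone isomerase make from phenylpropanoid precursors. The same early phenylpropanoid steps feed lignin, the polymer of water-conducting and barrier cell walls in roots. Roots and leaves of rice differ in most of the processes considered here, since leaves carry photosynthesis and roots take up iron, phosphate, nitrogen and water.

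Sequencing depth lay between 23740780 and 27917598 counts in f3h root, 27317632 and 29687320 in WT root, 32314230 and 37821918 in f3h leaf, and 31171931 and 35021116 in WT leaf. Log2 levels of replicate libraries correlated at 0.989 to 0.995 (Pearson), except that WT leaf replicate 1 correlated at 0.979 and 0.980 with its 2 partners. The scatter of counts between replicates, as chi-square per degree of freedom, set this library apart more clearly. It was 57.5 and 61.1 for WT leaf replicate 1 with its partners and 5.42 to 7.09 for every other pair. This library entered every leaf effect and every interaction of the main fit. The groups carried the markers of their organs. The summed level of 14 root cell markers was 3721 to 3762 CPM (counts scaled to the library total) in f3h root and 3991 to 4149 CPM in WT root, against 33.4 to 36.1 CPM in f3h leaf and 29.4 to 33.8 CPM in WT leaf. For 17 leaf mesophyll markers the sums were 177 to 188 CPM in f3h root, 31.0 to 35.1 CPM in WT root, and in leaf 64614 to 67062 CPM in f3h and 83431 to 95764 CPM in WT. Among these markers Os02g0152400 averaged 13.26 CPM in f3h root and 13.65 CPM in WT root, a large part of the WT root sum.

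Of the 4 loci entered here as flavanone 3-hydroxylases, a name that the reference table used did not hold for them, 2 had enough counts for the test. Locus Os04g0662600 had 0, 0 and 0 counts in the f3h root libraries and 2, 20 and 17 in the WT root libraries, with 2 counts in all in f3h leaf and 0 in WT leaf. No f3h root library had a count there and each WT root library had at least 2, but a count of 0 allows up to 3 counts per library. Os04g0667200 had 38, 16 and 18 counts in f3h root, 30, 27 and 39 in WT root, 4 in all in f3h leaf and 0 in WT leaf. These numbers are too few for an interaction and do not settle which locus the line targets. At Os10g0536400 the levels were 31.9, 35.2 and 33.1 CPM in f3h root, 37.7, 36.2 and 31.9 CPM in WT root, and in leaf 87.7, 81.4 and 86.8 CPM in f3h and 57.4, 51.6 and 52.04 CPM in WT. It was higher in f3h leaf than in WT leaf (log2 0.71 ± 0.084 SE), while the root difference was -0.096 ± 0.086, and the interaction of -0.80 ± 0.12 passed the test (adjusted p = 0.000107). Os03g0122300 differed the other way, with a leaf effect of -0.54 ± 0.14, a root effect of 0.10 ± 0.14 and an interaction of 0.64 ± 0.20 (adjusted p = 0.0201). That last call was lost without f3h leaf replicate 2 (0.58) or replicate 3 (0.60), and without WT leaf replicate 1 it was kept at a smaller value (0.39).

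The interaction passed an adjusted p of 0.05 for 7941 of the 21775 genes (36.5%), of which 3995 were positive (18.3% of genes tested) and 3946 negative (18.1%). At an absolute log2 of at least 1 there were 4242 genes (19.5%), 2010 of them positive (9.23% of genes tested) and 2232 negative (10.3%). In the root comparison 7921 genes differed between f3h and WT (36.4%), 4071 of them higher in f3h root (18.7%) and 3850 lower (17.7%). In the leaf comparison 8865 genes differed (40.7%), with 4446 higher (20.4%) and 4419 lower in f3h leaf (20.3%). The median interaction over all genes was 0.036 and its standard deviation across genes 1.15, against 0.776 for the root effects and 0.893 for the leaf effects.

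The f3h effects in root and in leaf were nearly uncorrelated. Across the 21775 genes the root and leaf effects correlated at r = 0.0535, as a description over genes, which are not independent replicates. Among the 7941 genes with an interaction, 1841 (23.2%) differed in both organs with opposite signs, which is 8.45% of all genes tested. Of these, 882 were higher in f3h root and lower in f3h leaf, and 959 were lower in f3h root and higher in f3h leaf. Another 2133 genes (26.9%) passed the test in root alone, and 2958 (37.2%) in leaf alone. Only 603 (7.59%) moved in the same direction in both organs with different sizes, and the leaf effect was the larger one in 361 of them. The remaining 406 (5.11%) passed in neither organ alone. Over all genes tested, 4103 were called in both organs, and 2262 of them (10.4% of genes tested) moved in the same direction, whether or not the sizes differed. Passing in one organ only is not by itself a difference between organs, since 3818 genes passed in root alone and the interaction was called for 2133 of them.

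**Figure D1:**
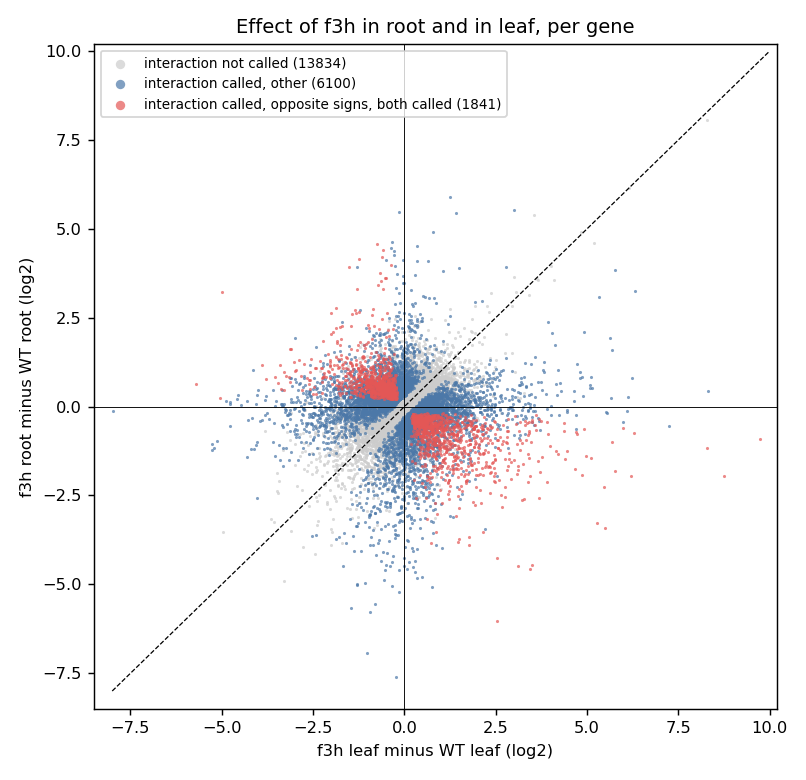
Each point is 1 of the 21775 genes tested, with the f3h effect in leaf on the x axis and in root on the y axis (log2, f3h minus WT). The 1841 genes with called effects of opposite sign lie in the upper left and lower right corners, and points on the dashed line have the same effect in both organs.

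Photosynthesis genes had the highest median interaction of the 21 gene lists with a tested member. Of 36 members 34 were tested, and 32 had a positive interaction (18.3% of all genes did) while none had a negative one, with a median of 3.49 against 0.036 over all genes. In root 32 members were higher in f3h (18.7% of all genes) and none lower, with a median root effect of 3.28 against 0.038 over all genes. In leaf 2 were higher and 14 lower (20.3% of all genes), with a median of -0.34 against -0.0071 over all genes. Opposite directions, higher in f3h root and lower in f3h leaf, were found for 14 members, and for 4.05% of all genes tested.

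CAB2R, a chlorophyll a/b-binding protein of the light-harvesting antenna, had 24.03, 25.8 and 23.1 CPM in f3h root, 1.31, 1.65 and 1.75 CPM in WT root, with leaf values of 5735, 5762 and 5652 CPM in f3h and 14533, 17504 and 18000.5 CPM in WT. All f3h root libraries lay above all WT root libraries, and all f3h leaf libraries below all WT leaf libraries. Here and below, such genes were chosen by p-value, by effect size or after their values were seen, which made this separation likely. The share of all genes tested with groups apart in this way was not counted. The interaction of CAB2R was 5.43 ± 0.16 (adjusted p = 1.03e-11), from 3.93 ± 0.13 in root and -1.51 ± 0.095 in leaf. PETE, the electron carrier plastocyanin, averaged 7.99 ± 0.289 CPM in f3h root and 0.451 ± 0.118 CPM in WT root (SD, n = 3 each), with 4518 ± 213 CPM in f3h leaf and 4727 ± 171 CPM in WT leaf. Its interaction of 4.14 ± 0.17 (adjusted p = 3.34e-10) came with a leaf effect of -0.026 ± 0.080 that did not pass. RCA, the activase of Rubisco, was higher in f3h in both organs, by 3.12 ± 0.15 in root and 0.51 ± 0.11 in leaf, so that its interaction of 2.61 ± 0.18 is a difference of size. PSAH, a subunit of photosystem I, had a root effect of 1.09 ± 0.17, a leaf effect of -0.87 ± 0.12 and an interaction of 1.96 ± 0.21 (adjusted p = 4.65e-06). For CAB1R, another antenna protein, the interaction was 4.52 ± 0.37 (adjusted p = 3.12e-07). Its leaf effect of -0.27 ± 0.20 did not pass, but without WT leaf replicate 1 it was -0.55 and passed. Antenna proteins form a family of similar sequences, and their reads may be shared between members.

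The root levels behind these interactions were low. The root value of a mesophyll marker was 0.251% of its leaf value in f3h and 0.0118% in WT, as medians over 17 markers, all of them members of this list, and 1 marker, Os02g0152400, was higher in root than in leaf in both genotypes. For the 34 tested photosynthesis genes, the median log2 ratio of root to leaf was -8.6 in f3h and -12.4 in WT, against 0.641 and 0.555 over all genes. All 3 f3h root libraries had a higher summed mesophyll marker level than all 3 WT root libraries, and all 3 f3h leaf libraries a lower one than all 3 WT leaf libraries. The part of leaf material or of leaf-type cells in these root values was not tested. With the 243 genes left out whose mean root level was under 1% of their mean leaf level, an alternative added after the data were seen, 7813 interactions were called.

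Chlorophyll synthesis followed in the same direction with smaller values. Of 11 tested members out of 12, 6 had a positive and 1 a negative interaction (63.6% called, against 36.5% over all genes), with a median of 1.07. In f3h root 6 were higher (18.7% of all genes) and none lower, beside the higher mesophyll marker sum of f3h root. PORB, which reduces protochlorophyllide in light, averaged 1.697 ± 1.02 CPM in f3h root and 0.258 ± 0.0773 CPM in WT root, with 619 ± 15.4 CPM in f3h leaf and 884 ± 59.8 CPM in WT leaf (SD, n = 3 each). Its interaction was 3.11 ± 0.44 (adjusted p = 5.73e-05). CHLH, a subunit of magnesium chelatase, had an interaction of 1.27 ± 0.14, and CHLG, chlorophyll synthase, one of 1.07 ± 0.19, each with a leaf effect under 0.1 in size that did not pass. The negative member was CHLD, another magnesium chelatase subunit, at -0.61 ± 0.15 (adjusted p = 0.00478). Here and in the lists that follow, members outside the naming rule that are given as the few of one direction, or as the largest of a list, were chosen after their values were seen.

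**Figure D2:**
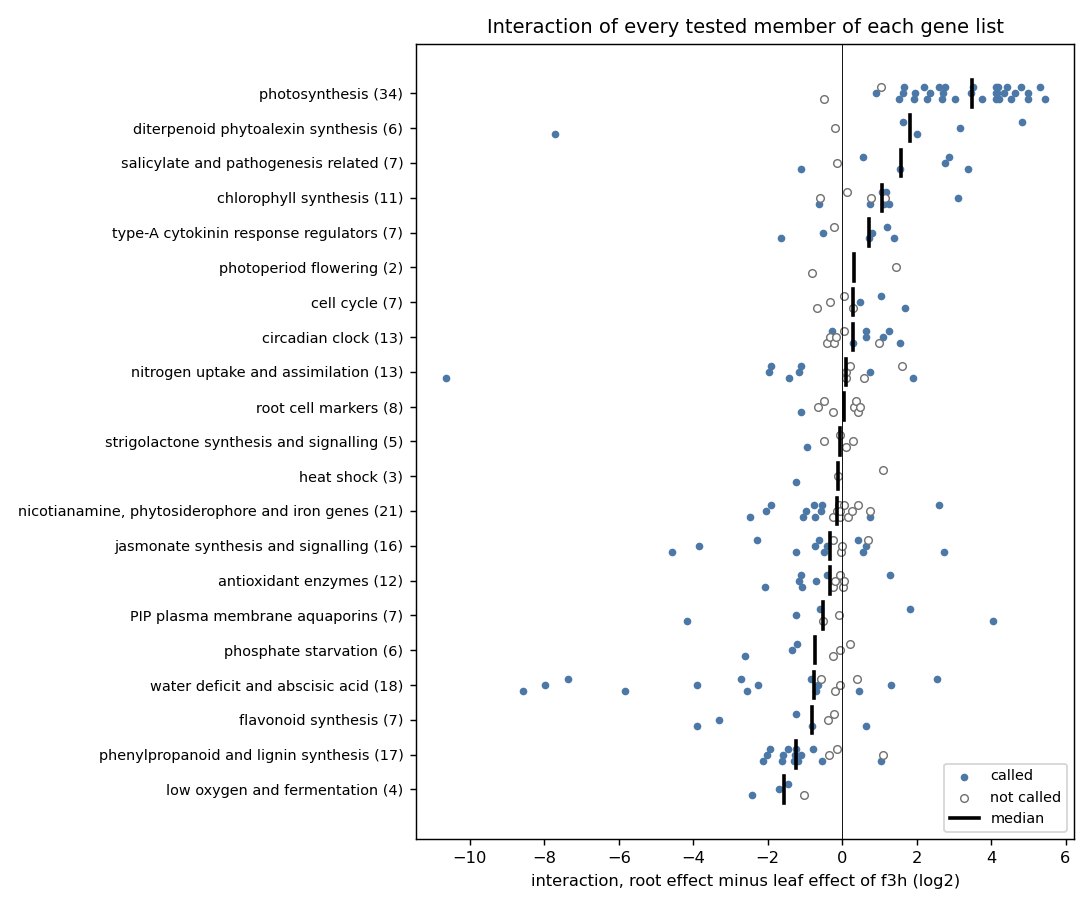
Every tested member of 21 gene lists is drawn at its interaction (x axis, root effect minus leaf effect of f3h, log2), with filled points for called members, open points for the others and a bar at the list median. Photosynthesis lies furthest to the right with 32 of 34 members called positive, and low oxygen and fermentation has the lowest median, at -1.57 over 4 members.

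Phenylpropanoid and lignin genes showed the opposite pattern. Of 23 members 17 were tested, 13 with a negative and 1 with a positive interaction (82.4% called, against 36.5% over all genes), at a median of -1.24. In root 14 were lower and none higher in f3h, with a median of -0.97, where 17.7% of all genes were lower. In leaf 7 were higher and 5 lower (20.4% and 20.3% of all genes), with a median of -0.00059. Opposite directions, lower in f3h root and higher in f3h leaf, were found for 7 members, and for 4.4% of all genes tested.

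COMT1, a caffeic acid O-methyltransferase of lignin synthesis, had 484, 489 and 489 CPM in f3h root, 1199, 1344 and 1225 CPM in WT root, and in leaf 237, 234 and 236 CPM in f3h and 152, 156 and 158 CPM in WT. The f3h libraries lay wholly below WT in root and wholly above WT in leaf, and the interaction was -2.02 ± 0.098 (adjusted p = 1.48e-09). 4CL3, a 4-coumarate:CoA ligase, had effects of -0.86 ± 0.077 in root and 0.59 ± 0.078 in leaf, with an interaction of -1.46 ± 0.11 (adjusted p = 1.19e-07). HCT1, a hydroxycinnamoyltransferase, had effects of -0.61 ± 0.067 in root and 0.63 ± 0.068 in leaf, with an interaction of -1.24 ± 0.096 (adjusted p = 1.60e-07). The positive member, locus Os06g0165800, was lower in f3h leaf (-1.06 ± 0.096) and differed by -0.020 ± 0.096 in root.

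Flavonoid synthesis had 7 tested members of 13, with 4 negative and 1 positive interaction (71.4% called, against 36.5% over all genes) and a median of -0.80. CHS1, chalcone synthase, the entry enzyme of the pathway, had 0.233, 0.251 and 0.253 CPM in f3h root, 0.656, 1.21 and 0.472 CPM in WT root, with leaf values of 23.3, 25.3 and 26.2 CPM in f3h and 6.42, 4.54 and 5.32 CPM in WT. Chalcone synthase was lower in f3h root (-1.66 ± 0.39) and higher in f3h leaf (2.24 ± 0.21), and the interaction was -3.896 ± 0.43 (adjusted p = 6.60e-06). CHI, chalcone isomerase, was lower in f3h root (-1.04 ± 0.18) and differed by 0.19 ± 0.18 in leaf, with an interaction of -1.23 ± 0.25 (adjusted p = 0.00152). Without WT leaf replicate 1 its leaf effect was -0.063, which did not pass, and its interaction was -1.01, which did.

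Water deficit and abscisic acid genes held some of the largest interactions. Of 25 members 18 were tested, 11 with a negative and 3 with a positive interaction (77.8% called, against 36.5% over all genes), at a median of -0.77. In root 11 were lower and 4 higher in f3h (17.7% and 18.7% of all genes). In leaf 6 were higher and 2 lower (20.4% and 20.3% of all genes). LEA3, a late embryogenesis abundant protein made under water deficit, had 0.271, 0.466 and 1.095 CPM in f3h root, 13.96, 14.2 and 13.9 CPM in WT root, and in leaf 13.8, 10.7 and 11.1 CPM in f3h and 1.41, 1.14 and 0.828 CPM in WT. In f3h it was higher in every leaf library than in any root library, and in WT it was higher in every root library than in any leaf library. The interaction of LEA3 was -7.995 ± 0.44 (adjusted p = 4.95e-09).

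DREB1B, a transcription factor of cold and drought responses, had 0, 0.466 and 0.379 CPM in f3h root and 54.8, 59.3 and 52.6 CPM in WT root, whereas the leaf values were 1.14, 2.04 and 1.53 CPM in f3h and 1.28, 1.999 and 2.37 CPM in WT. Its leaf groups overlapped, and its interaction of -7.37 ± 0.55 (adjusted p = 1.05e-07) rested on the root. The neighbouring DREB1A showed -2.71 ± 0.42 (adjusted p = 0.000162), also with overlapping leaf groups. RAB16C, a dehydrin of a tandem family whose members may share reads, had an interaction of -3.895 ± 0.87 (adjusted p = 0.00274), with a mean of 0.3103 ± 0.403 CPM in f3h root and 9.76 ± 1.63 CPM in WT root. The lowest interaction of the list was that of locus Os11g0454300, which had 1.09, 1.22 and 0.674 CPM in f3h root, 65.4, 66.1 and 65.1 CPM in WT root, with leaf values of 7.78, 8.32 and 7.69 CPM in f3h and 1.51, 0.999 and 1.74 CPM in WT (interaction -8.56 ± 0.28, adjusted p = 2.55e-11). It was lower in all f3h root libraries and higher in all f3h leaf libraries than in WT.

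Some other members of the water deficit list changed more in leaf, or alike in both organs. P5CS1, the first enzyme of proline synthesis, was higher in f3h in both organs, by 0.61 ± 0.12 in root and 3.16 ± 0.13 in leaf (interaction -2.55 ± 0.17, adjusted p = 3.90e-08). NAC5, a stress-responsive transcription factor, had effects of -0.53 ± 0.086 in root and 1.74 ± 0.089 in leaf (interaction -2.27 ± 0.12, adjusted p = 4.28e-09). DHN1, a dehydrin, was lower in f3h in both organs by about the same amount (-0.49 ± 0.080 in root, -0.44 ± 0.083 in leaf), with an interaction of -0.050 ± 0.12. SALT, a lectin induced by salt, was lower in f3h in both organs (-2.67 ± 0.12 in root, -2.11 ± 0.22 in leaf), and its interaction of -0.56 ± 0.27 did not pass (adjusted p = 0.12). Without WT leaf replicate 1 that value was -0.73 and without f3h leaf replicate 1 it was -0.82, and both passed, as did the DESeq2 value of -0.58. The 3 positive members were TRAB1, P5CS2 and locus Os12g0617400, at 0.46, 1.302 and 2.56.

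**Figure D3:**
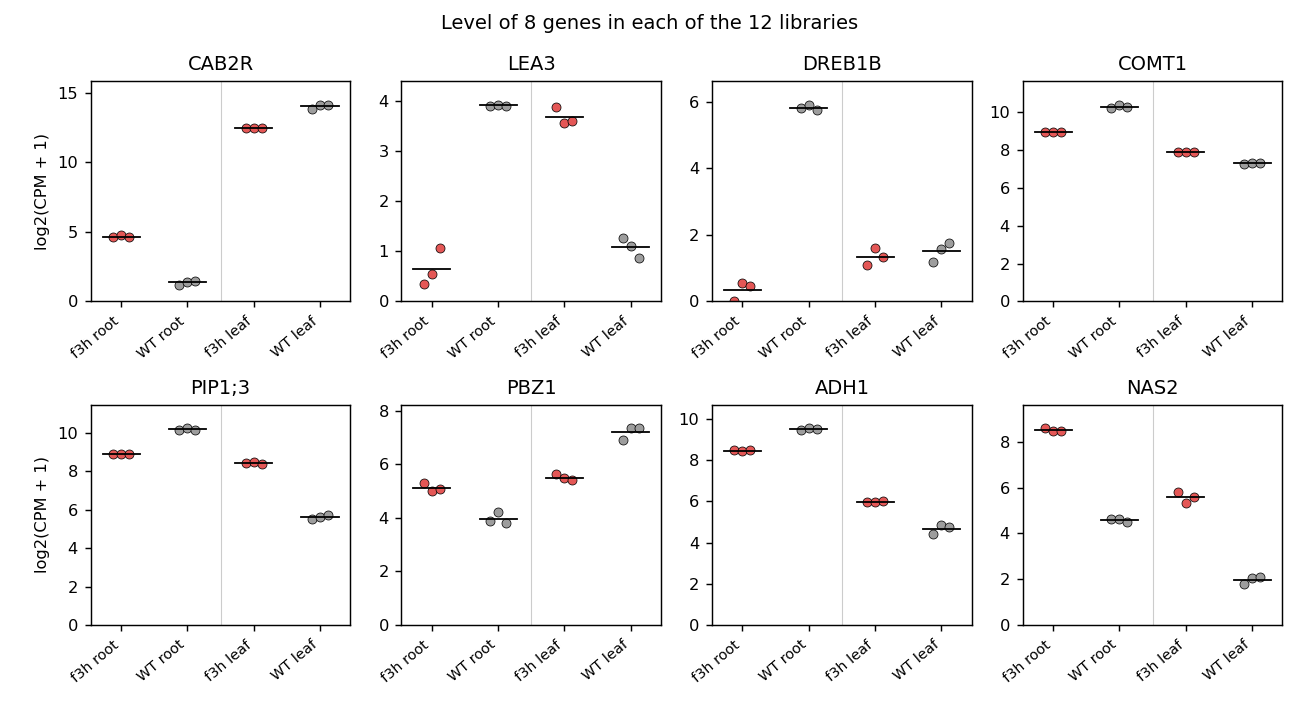
The level of 8 genes is shown as log2(CPM + 1) on the y axis for each of the 12 libraries, with groups on the x axis, 1 point per library and a line at the group mean of the log values. LEA3, COMT1, PIP1;3 and ADH1 are lower in f3h root and higher in f3h leaf than in WT, CAB2R and PBZ1 are the other way round, DREB1B differs in root, and NAS2 is higher in f3h in both organs.

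Aquaporins of the PIP family, water channels of the plasma membrane, had 2 positive and 3 negative interactions among 7 tested members of 11 (71.4% called, against 36.5% over all genes). PIP1;3 had 479, 472 and 469 CPM in f3h root, 1140.3, 1193 and 1110.2 CPM in WT root, and in leaf 339.7, 355 and 334 CPM in f3h and 44.1, 47.7 and 52.5 CPM in WT. It was lower in f3h root and higher in f3h leaf without overlap. The log2 ratio of root to leaf in mean CPM was 0.47 in f3h and 4.58 in WT, against medians of 0.641 and 0.555 over all genes. The interaction was -4.17 ± 0.12 (adjusted p = 6.08e-12). PIP2;7 went the other way, with 1.36, 1.36 and 1.095 CPM in f3h root, 0.365, 0.0732 and 0.168 CPM in WT root, with leaf values of 143, 145 and 131 CPM in f3h and 277, 446 and 431 CPM in WT (interaction 4.04 ± 0.47, adjusted p = 9.90e-06). Its root levels were far below its leaf levels, and its higher root level in f3h stands beside the higher mesophyll marker sum (177 to 188 CPM in f3h root, 31.0 to 35.1 CPM in WT root), whose part in it was not tested. That sum includes Os02g0152400, at means of 13.26 CPM in f3h root and 13.65 CPM in WT root. PIP2;6 had effects of 0.78 ± 0.19 in root and -1.03 ± 0.21 in leaf (interaction 1.81 ± 0.29, adjusted p = 0.000176). PIP1;1 was lower in f3h in both organs (-0.48 ± 0.088 in root, -0.40 ± 0.088 in leaf), and its interaction of -0.082 ± 0.12 did not pass, although without WT leaf replicate 1 the value was -0.22 and passed, as did that of limma voom with sample weights (-0.18). The other 4 members, among them PIP2;3 and PIP2;4, had too few leaf counts for the test.

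Genes of iron uptake and of nicotianamine, the metal chelator from which grasses make phytosiderophores, combined shared and organ-dependent changes. Of 23 members 21 were tested, with 2 positive and 9 negative interactions (52.4% called, against 36.5% over all genes) and a median of -0.15. In both organs 8 members changed in the same direction, as did 10.4% of all genes tested. NAS2, a nicotianamine synthase, had 382, 356 and 353 CPM in f3h root, 23.8, 23.98 and 21.4 CPM in WT root, and in leaf 55.3, 38.8 and 47.5 CPM in f3h and 2.44, 3.17 and 3.28 CPM in WT. It was higher in f3h by 3.96 ± 0.13 in root and 4.03 ± 0.14 in leaf, and the interaction was -0.065 ± 0.18 (adjusted p = 0.813). Its tandem neighbour NAS1 was higher by 3.56 ± 0.14 in root and 3.65 ± 0.17 in leaf, with an interaction of -0.093 ± 0.21 (adjusted p = 0.766). For this pair the f3h effect was over 3.5 on the log2 scale in each organ, and the difference between organs was smaller than its standard error.

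NAAT1, nicotianamine aminotransferase, the next enzyme of phytosiderophore synthesis, did differ between organs. It had 137, 149.8 and 152 CPM in f3h root, 32.8, 29.3 and 34.9 CPM in WT root, with leaf values of 75.5, 71.6 and 77.4 CPM in f3h and 83.4, 116 and 114 CPM in WT. Root was higher and leaf lower in f3h, with an interaction of 2.603 ± 0.16 (adjusted p = 1.50e-08). The other positive member was IRO3, a transcription factor of the iron deficiency response, at 0.74 ± 0.21. IRT2, a ferrous iron transporter, was higher in f3h by 0.50 ± 0.16 in root and 2.401 ± 0.19 in leaf (interaction -1.901 ± 0.25, adjusted p = 2.86e-05). YSL2, a transporter of metal chelates, was higher in f3h leaf alone (0.98 ± 0.085, against 0.0028 ± 0.084 in root), with an interaction of -0.97 ± 0.12.

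Jasmonate genes gave 4 positive and 8 negative interactions among 16 members, all tested, at a median of -0.33. Over all genes, 18.3% were positive and 18.1% negative. TIFY11A, a JAZ-type repressor whose transcripts are known to rise with jasmonate, had 4.88, 3.403 and 5.602 CPM in f3h root, 27.5, 34.1 and 26.98 CPM in WT root, and in leaf 16.8, 17.9 and 17.9 CPM in f3h and 3.27, 5.14 and 6.24 CPM in WT. The f3h libraries were below WT in root and above WT in leaf, and the interaction was -4.57 ± 0.31 (adjusted p = 4.19e-08). Its neighbours on the chromosome, TIFY11B and TIFY11C, had interactions of -2.28 ± 0.24 and -1.23 ± 0.14, and both were lower in f3h root. TIFY11B differed by -0.28 ± 0.17 in leaf, which did not pass, although it did without WT leaf replicate 1 (-0.52). TIFY11C was higher in f3h leaf by 0.67 ± 0.10. AOS2, an allene oxide synthase of jasmonate synthesis, had effects of -1.02 ± 0.32 in root and 2.82 ± 0.49 in leaf (interaction -3.84 ± 0.58, adjusted p = 0.000124). Its leaf levels were near the floor, at 1.55, 2.35 and 1.11 CPM in f3h and 0, 0.286 and 0.414 CPM in WT. Mean root levels were 9.64 CPM in f3h and 19.2 CPM in WT. Without WT leaf replicate 1 its leaf effect was 2.26 and its interaction -3.31, and both passed. TIFY10B was lower in f3h in both organs, more so in leaf (interaction 0.43 ± 0.11), and TIFY10C was higher in both, with an interaction of -0.0015 ± 0.13.

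Salicylate and pathogenesis-related genes gave 5 positive interactions and 1 negative among 7 tested members of 8 (85.7% called, against 36.5% over all genes), with a median of 1.57. Of these, 3 members were higher in f3h root and lower in f3h leaf, as were 4.05% of all genes tested. PBZ1, a pathogenesis-related protein of the PR10 family, had 37.9, 31.3 and 32.9 CPM in f3h root, 13.7, 17.6 and 12.9 CPM in WT root, with leaf values of 48.5, 43.4 and 41.4 CPM in f3h and 119, 161 and 160.4 CPM in WT. It was higher in f3h root and lower in f3h leaf without overlap, with an interaction of 2.87 ± 0.20 (adjusted p = 5.54e-08). NPR1, a co-activator of salicylate responses, had effects of 0.86 ± 0.12 in root and -0.70 ± 0.13 in leaf (interaction 1.56 ± 0.18, adjusted p = 8.03e-06). WRKY62, a transcription factor of defence, had effects of 0.34 ± 0.12 in root and -2.43 ± 0.12 in leaf (interaction 2.77 ± 0.17, adjusted p = 1.41e-08). The negative member was locus Os12g0555000, at -1.104 ± 0.22.

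Diterpenoid phytoalexin genes, which make antimicrobial compounds, could be tested for 6 of 15 members, with 4 positive interactions and 1 negative (83.3% called, against 36.5% over all genes) and a median of 1.83. CPS4, a copalyl diphosphate synthase, had 9.998, 8.704 and 8.34 CPM in f3h root, 8.49, 7.98 and 9.13 CPM in WT root, and in leaf 0.163, 0.0619 and 0.212 CPM in f3h and 4.36, 4.37 and 4.14 CPM in WT. The root groups overlapped, the f3h leaf libraries lay below the WT leaf libraries, and the interaction was 4.84 ± 0.36 (adjusted p = 1.20e-07). The interaction of CYP76M8, a cytochrome P450 of diterpenoid synthesis, was 3.15 ± 0.89 (adjusted p = 0.012), and 5.83 without f3h leaf replicate 2. CYP99A3, another cytochrome P450 of this branch, had an interaction of 1.64 ± 0.59 (adjusted p = 0.0403), and leaving out any 1 library other than WT leaf replicate 1 or f3h root replicate 2 or 3 removed the call, with values of 0.96 to 1.74, as did limma voom (1.43). The negative member, Os02g0569900, was lower in f3h root (-2.26 ± 0.71) and higher in f3h leaf (5.46 ± 0.64).

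**Figure D4:**
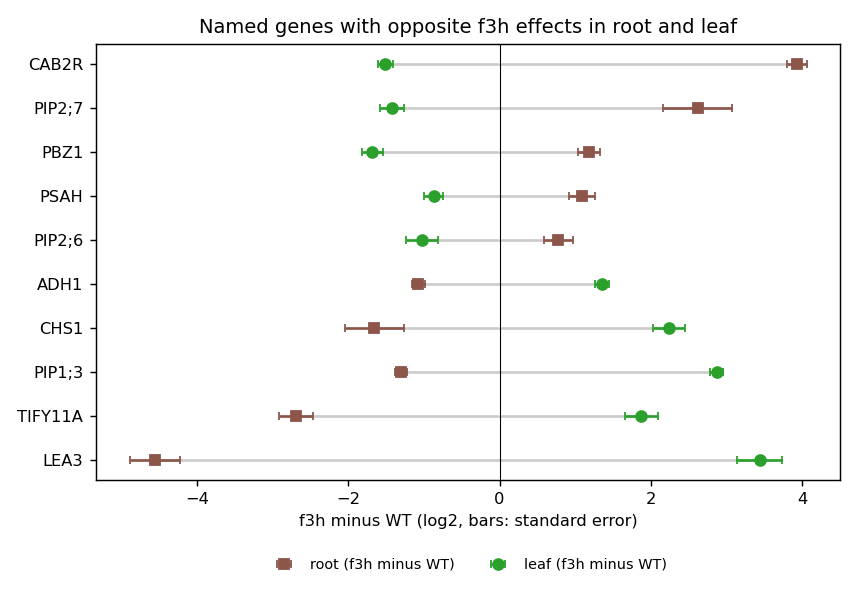
For 10 list members with a name in the table used, the 5 of each direction with the largest called effects of opposite sign (ranked by the smaller of the root and leaf effects), the f3h effect is drawn in root (squares) and in leaf (circles), as log2 f3h minus WT with bars of 1 standard error. The upper 5 are higher in f3h root and lower in f3h leaf, and the lower 5 are lower in f3h root and higher in f3h leaf.

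Genes of low oxygen and fermentation had 3 negative interactions (18.1% of all genes) and none positive among 4 tested members of 7, at a median of -1.57. ADH1, an alcohol dehydrogenase of fermentation, had 359, 344 and 357 CPM in f3h root, 713, 748 and 741 CPM in WT root, with leaf values of 61.1, 60.96 and 64.2 CPM in f3h and 20.8, 27.8 and 26.3 CPM in WT. ADH1 was thus lower in f3h root (-1.07 ± 0.091) and higher in f3h leaf (1.35 ± 0.095), with an interaction of -2.42 ± 0.13 (adjusted p = 4.28e-09). SUS1, a sucrose synthase, was higher in f3h in both organs, by 0.70 ± 0.11 in root and 2.39 ± 0.16 in leaf (interaction -1.69 ± 0.20). ADH2 had an interaction of -1.45 ± 0.38 (adjusted p = 0.00739), which did not pass without f3h leaf replicate 1 (-0.90), nor with limma voom (-1.35) or limma voom with sample weights (-1.46). ADH2 was lower in f3h root (-0.95 ± 0.12), and its leaf effect of 0.49 ± 0.36 did not pass. Its mean leaf levels were near the floor, at 0.466 CPM in f3h and 0.341 CPM in WT, against 2015 and 3853 CPM in root.

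Antioxidant enzymes, all 12 tested, gave 1 positive and 6 negative interactions (58.3% called, against 36.5% over all genes) at a median of -0.33. CATA, a catalase, averaged 90.7 ± 3.14 CPM in f3h root and 307 ± 0.982 CPM in WT root, with 841 ± 28.7 CPM in f3h leaf and 708 ± 237 CPM in WT leaf (SD, n = 3 each). CATA was lower in f3h root (-1.78 ± 0.16), and its leaf effect of 0.29 ± 0.15 did not pass (interaction -2.06 ± 0.22, adjusted p = 4.26e-06). WT leaf replicate 1 lay at 981 CPM and the other two at 557 and 586 CPM, and without it the leaf effect was 0.58 and passed. SODA, the manganese superoxide dismutase of mitochondria, had effects of -0.52 ± 0.072 in root and 0.57 ± 0.072 in leaf, and SODCC2, a cytosolic copper/zinc form, -0.24 ± 0.072 in root and 0.83 ± 0.072 in leaf. Their interactions were -1.09 ± 0.10 and -1.07 ± 0.10. SODCP, the plastid copper/zinc form, was higher in f3h in both organs, with an interaction of -0.19 ± 0.14 that did not pass. The positive member was locus Os03g0131200, at 1.29 ± 0.43 (adjusted p = 0.028).

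Phosphate starvation genes had 3 negative interactions and none positive among 6 tested members of 12, at a median of -0.72 against 0.036 over all genes, of which 36.5% were called. Without WT leaf replicate 1 the list had 4 negative interactions and 1 positive. PT8, a phosphate transporter, had 11.1, 11.2 and 12.3 CPM in f3h root, 39.5, 37.5 and 35.7 CPM in WT root, and in leaf 31.4, 30.5 and 33.6 CPM in f3h and 20.3, 16.3 and 16.5 CPM in WT. It was lower in f3h root and higher in f3h leaf without overlap (interaction -2.61 ± 0.15, adjusted p = 7.49e-09). SPX1, a regulator of phosphate starvation responses, had effects of -0.43 ± 0.13 in root and 0.91 ± 0.13 in leaf (interaction -1.34 ± 0.18), and PHO1-2, a phosphate exporter that loads the xylem, was lower in f3h root (-1.204 ± 0.11, interaction -1.21 ± 0.16).

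Nitrogen uptake and assimilation genes had 2 positive and 6 negative interactions among 13 tested members of 18 (61.5% called, against 36.5% over all genes), with a median of 0.10 that is positive although more calls were negative. NIA1, a nitrate reductase, was higher in f3h leaf by 1.72 ± 0.084 and differed by -0.19 ± 0.11 in root (interaction -1.902 ± 0.14, adjusted p = 6.61e-08). GS1;2, a cytosolic glutamine synthetase, was lower in f3h root (-1.23 ± 0.098) and differed by 0.19 ± 0.099 in leaf (interaction -1.42 ± 0.14, adjusted p = 1.83e-06). GLU, a ferredoxin-dependent glutamate synthase, had effects of -0.79 ± 0.077 in root and 0.31 ± 0.075 in leaf (interaction -1.097 ± 0.11). GS1;1 was lower in f3h in both organs, more so in leaf (interaction 0.76 ± 0.11), and AMT1;1, an ammonium transporter, was lower in both too (-0.94 ± 0.12 in root, -1.05 ± 0.10 in leaf), with an interaction of 0.12 ± 0.15 that did not pass. The other positive member was locus Os10g0554200, at 1.901 ± 0.24. Locus Os03g0291500 of this list had 35.9, 35.5 and 34.5 CPM in f3h root, 66.6, 65.3 and 64.8 CPM in WT root, with leaf values of 221, 259 and 222 CPM in f3h and 0.385, 0.114 and 0.355 CPM in WT. Its level was lower in f3h root (-0.91 ± 0.11) and far higher in f3h leaf (9.73 ± 0.18), with an interaction of -10.64 ± 0.22 (adjusted p = 2.76e-13).

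Circadian clock genes, all 13 tested, had 6 positive interactions and 1 negative (53.8% called, against 36.5% over all genes), with a median of 0.29. Without WT leaf replicate 1 there were 6 positive and 4 negative ones. In leaf 6 were lower in f3h and none higher, and in root 5 were lower and 1 higher, where 20.3% of all genes were lower in f3h leaf and 17.7% in f3h root. PRR37, a pseudo-response regulator of the clock that also delays flowering, averaged 40.4 ± 2.298 CPM in f3h root and 22.1 ± 1.64 CPM in WT root, with 69.4 ± 1.62 CPM in f3h leaf and 116 ± 15.04 CPM in WT leaf (SD, n = 3 each). It was the member with opposite directions, at 0.85 ± 0.10 in root and -0.71 ± 0.097 in leaf (interaction 1.56 ± 0.14, adjusted p = 7.68e-07). The related PRR1 and PRR95 were lower in f3h leaf (-0.94 ± 0.14 and -1.07 ± 0.072), and their root effects of 0.33 ± 0.13 and 0.017 ± 0.072 did not pass. GI, a large plant-specific clock protein, was lower in f3h in both organs, and its interaction of 0.30 ± 0.11 (adjusted p = 0.0408) remained called in 2 of the 12 fits that left out 1 library. Those were the fits without WT leaf replicate 1 and without WT leaf replicate 3, and in the others the value lay between 0.26 and 0.31. The value without WT leaf replicate 1 was 0.199, and the call was also lost with DESeq2 size factors (0.27), with no filter beyond 1 count (0.28) and with a replicate block (0.29). The negative member was locus Os02g0150800, at -0.29 ± 0.10 (adjusted p = 0.0454). The time of day of sampling is not given in the sources used here.

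Of the hormone and growth lists, type-A cytokinin response regulators had 4 positive and 2 negative interactions among 7 tested members of 9 (85.7% called, against 36.5% over all genes), at a median of 0.71. RR6 was lower in f3h root (-1.59 ± 0.19, interaction -1.64 ± 0.26), as was RR4 (-0.37 ± 0.088, interaction -0.51 ± 0.12), and RR1 was lower in f3h leaf (-1.302 ± 0.18, interaction 1.38 ± 0.27). RR9 was lower in both organs, with an interaction of 0.71 ± 0.23 that was lost without f3h leaf replicate 3 (0.64) or WT root replicate 3 (0.63), and without WT leaf replicate 1 it passed at a smaller value (0.41). RR2 was lower in both, and its interaction of -0.23 ± 0.11 did not pass, although it did without WT leaf replicate 1 (-0.32), with DESeq2 (-0.25) and with limma voom and sample weights (-0.296). Strigolactone genes had 1 negative interaction among 5 tested members of 6 (2 without WT leaf replicate 1), a share below the 36.5% called over all genes. It was that of D3, the F-box protein of strigolactone signalling (-0.93 ± 0.10, adjusted p = 6.49e-06). D14, the receptor, was higher in f3h in both organs, and its interaction of -0.50 ± 0.20 passed only in some settings, among them the fit without WT leaf replicate 1 (-0.78).

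Cell cycle genes had 3 positive interactions and none negative among 7 tested members of 8, a share called of 42.9% that is near the 36.5% over all genes. In f3h root 4 were higher (18.7% of all genes) and none lower. CDKB1;1, a mitotic cyclin-dependent kinase, had effects of 0.84 ± 0.13 in root and -0.20 ± 0.13 in leaf (interaction 1.04 ± 0.18). PCNA, the sliding clamp of DNA replication, had effects of 0.39 ± 0.081 in root and -0.097 ± 0.085 in leaf (interaction 0.49 ± 0.12). CDKA2 was lower in f3h leaf (-1.39 ± 0.30, interaction 1.68 ± 0.41), and CYCB1;1, a mitotic cyclin, was higher in both organs, with an interaction of -0.32 ± 0.34 that did not pass. The leaf call of CYCB1;1 was lost without WT leaf replicate 1 (1.04). The summed level of 6 markers of dividing cells was 266 to 291 CPM in f3h root and 178 to 187 CPM in WT root, against 26.8 to 29.2 CPM in f3h leaf and 29.9 to 31.8 CPM in WT leaf. All f3h root sums lay above the WT root sums and all f3h leaf sums below the WT leaf sums. The part of dividing cells in the other results was not tested.

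Root cell markers had 1 negative interaction and none positive among 8 tested members of 14, a share called of 12.5% against 36.5% over all genes, and without WT leaf replicate 1 there were 2 negative ones. The called one was SCR1, a patterning regulator of the root endodermis, with -0.47 ± 0.14 in root and 0.63 ± 0.14 in leaf (interaction -1.11 ± 0.20). CSLD1, needed for root hairs, was lower in f3h in both organs (-1.52 ± 0.25 in root, -1.96 ± 0.34 in leaf), with an interaction of 0.44 ± 0.41 that did not pass and was 0.037 without WT leaf replicate 1. CASP1, a protein of the Casparian strip in the endodermis, is given after its values were seen and could not be tested, with 629, 782 and 625 counts in f3h root, 2267, 2451 and 2545 in WT root, 1 in all in f3h leaf and 0 in WT leaf. The 14 markers together were much nearer between f3h and WT root, at 3721 to 3762 CPM in f3h root and 3991 to 4149 CPM in WT root. Heat shock genes had 1 negative interaction among 3 tested members of 7 (33.3% called), that of HSP17.4, a small heat shock protein (-1.24 ± 0.35, adjusted p = 0.0121). Photoperiod flowering genes had 2 tested members of 7, neither called, and none of the 6 PIN auxin carriers passed the count filter.

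Outside the lists, the loci with the largest interactions at an average of at least 3 log2 CPM are given by locus. Names were looked up for list members only, so these loci may have names or belong to the processes above. Os04g0688500 had 0.9301, 0.322 and 1.35 CPM in f3h root, 3.83, 3.11 and 2.83 CPM in WT root, and in leaf 93.9, 112 and 98.9 CPM in f3h and 0.385, 0.343 and 0 CPM in WT (interaction -10.7 ± 0.54, adjusted p = 2.12e-09). Os02g0770800 had 0.233, 1.36 and 1.26 CPM in f3h root, 2.698, 1.46 and 2.16 CPM in WT root, with leaf values of 157, 162 and 176 CPM in f3h and 0.321, 0.571 and 0.7096 CPM in WT (interaction -9.44 ± 0.48, adjusted p = 2.38e-09). Both were lower in f3h root and far higher in f3h leaf than in WT. In the positive direction, Os06g0141200 averaged 3.604 ± 0.05097 CPM in f3h root and 0.369 ± 0.324 CPM in WT root, with 1.32 ± 0.547 CPM in f3h leaf and 42.8 ± 3.898 CPM in WT leaf (SD, n = 3 each), with an interaction of 8.21 ± 0.49. Os06g0697000 averaged 6.39 ± 1.82 CPM in f3h root and 6.94 ± 0.704 CPM in WT root, with 0.282 ± 0.2501 CPM in f3h leaf and 73.5 ± 7.79 CPM in WT leaf, with an interaction of 7.84 ± 0.47. Its root groups overlapped and its leaf groups did not.

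The share of genes called depended on their level. It was 7.86% of 1425 genes at an average of 0 log2 CPM or less and 65.4% of 433 genes above 8 log2 CPM, so that a missing call at a low level says little. By chromosome the share lay between 34.8% and 37.6%. At the edge of the filter, 225 genes had a smallest group sum of exactly 10 counts and 51 of them were called, while 119 genes with a smallest sum of 9 were left out. The filter left out 10042 genes with counts, among them 2144 that fell short in both leaf groups alone and 823 that fell short in both root groups alone. A further 2103 genes fell short in 1 group only, most often in WT leaf (824 genes).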

How the data were processed

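Total RNA of roots and leaves was made into mRNA libraries, per the labels' protocols. The authors deposited raw counts, whole read counts per gene without normalization. The tools named in the submitters' processing notes are DESeq, fastp, featureCounts and HISAT2. Tool versions, build, annotation and strand setting are not given in the sources consulted, so reads of overlapping or near-identical genes may be shared.

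Counts of 12 libraries were fitted together with edgeR 4.0.16 (R 4.3.3; TMM scaling, quasi-likelihood test, 4 group means), and root effect, leaf effect and interaction were contrasts of that fit. Calls are Benjamini-Hochberg adjusted p-values under 0.05 over all 21775 genes tested. Errors beside log2 values are standard errors. CPM values are counts scaled to the library total alone. Genes needed 10 counts summed in each group. In simulated counts of 21389 genes, the interaction of 100 was changed by a log2 of 1 and of another 100 by a log2 of 2. Of these, 44% and 84% were recovered, and 12 of the 140 calls were unchanged genes. The data gave 7941 calls among 21775 genes, a far larger share. Recovery and calls of unchanged genes at that share were not tested.

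The 22 gene lists hold 301 pairs of a name and a locus, of which 300 loci were in the count table and 224 were tested. A name was used only where a RefSeq gene table (ASM3414082v1) held it on the same chromosome within 5% of gene order, as for 189 loci. Other members are given by locus. This check does not separate tandem neighbours. No sequences were used.

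The 83 genes and loci named follow a rule: the flavanone 3-hydroxylase loci, the 10 largest called interactions of each sign among list members with a checked name and an average of at least 1 log2 CPM, up to 3 called members of each list by p-value, up to 5 list members with a checked name and opposite effects each way, up to 2 per list of shared direction, and 2 loci outside the lists for each sign. The genes and lists were chosen with earlier results of these data known.

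Alternatives were other scalings, filters and tests (limma 3.58.1, DESeq2 1.42.0), a replicate block and each library left out, all with the genes of the main filter unless the filter was the choice.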

Additional observations from a re-analysis of the deposited data

Results flagged for a closer look

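The f3h effect differed between root and leaf, by the interaction test itself, for 7941 of 21775 genes. All called genes named above meet the same criterion. Of the list members with a name in the table used and called effects of opposite sign, the 5 of each direction with the greatest smaller effect are given here, and others are described above. Positive interactions, with higher levels in f3h root and lower levels in f3h leaf, were those of CAB2R (5.43), PIP2;7 (4.04), PBZ1 (2.87), PSAH (1.96) and PIP2;6 (1.81). Negative interactions, with lower levels in f3h root and higher levels in f3h leaf, were those of LEA3 (-7.99), TIFY11A (-4.57), PIP1;3 (-4.17), CHS1 (-3.90) and ADH1 (-2.42). The f3h and WT groups of these genes did not overlap in either organ, which the choice by large called effects made likely beforehand. The share of all genes tested without overlap was not counted, so this adds nothing to the calls. The root levels of CAB2R, PSAH and PIP2;7 were far below their leaf levels, and the summed level of mesophyll markers was 177 to 188 CPM in f3h root and 31.0 to 35.1 CPM in WT root. That sum includes Os02g0152400, at means of 13.26 CPM in f3h root and 13.65 CPM in WT root. The part of the marker sum in these root effects was not tested.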

How the results depend on the processing

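The number of interactions called was within 1.5 times the 7941 under every other scaling, filter and test tried, and the share of positive calls stayed between 46.7% and 52.8%. Requiring an absolute log2 of at least 1 left 4242 (2010 positive, 2232 negative), 2221 genes in root (725 higher, 1496 lower in f3h), 3103 in leaf (1478 higher, 1625 lower in f3h) and 325 with opposite signs (95 higher in f3h root, 230 higher in f3h leaf). With limma voom and sample weights, genes higher in f3h root and lower in f3h leaf numbered 1372 instead of 882. Leaving out 1 library gave 7011 to 9645 interactions (3340 to 4680 positive, 3551 to 4965 negative), 6106 to 10217 calls in root, 7402 to 9649 in leaf and 1413 to 2580 genes with opposite signs. The highest counts came without WT leaf replicate 1, which also had the lowest weight (0.132), and the cause was not tested. Of 1848 values for named genes under alternatives, 1784 kept direction and call, 40 lost the call, 13 gained it and 11 changed sign. The sign changes were of NAS1, NAS2 and TIFY10C, whose interactions were called in neither fit. The interaction of NAS2 was 0.012 with limma voom and sample weights and lay between -0.21 and 0.043 with 1 library left out. The interaction of NAS1 lay between -0.29 and 0.062 with 1 library left out. The interaction of TIFY10C was 0.027 with upper quartile scaling and 0.0024 with limma voom, and lay between -0.064 and 0.10 with 1 library left out. Counts of the lists and leaf effects without WT leaf replicate 1 were added after the data were seen. Deviations of same-numbered libraries from their group means correlated at -0.070 to 0.121 (1 of 18 over 0.1), and those of other-numbered libraries at -0.149 to 0.147. With 3 libraries a group this cannot tell if same numbers mark the same plants. A replicate block gave 7608 interactions. Of these, 7482 were among the 7941. Depth limits what can be seen for genes near the count minimum, and 3 libraries a group limit the precision of every value.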

Other observations

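Some list members with large contrasts fell outside the interaction because 1 or more groups had under 10 counts in all. The values are summed counts over the 3 libraries of a group, given without a test and chosen after they were seen. DREB1H, a neighbour of DREB1A and DREB1B, had 0 counts in f3h root and 3538 in WT root, against 39 in f3h leaf and 22 in WT leaf. RAB16D, a dehydrin, had 2 counts in f3h root and 1979 in WT root, and 2 in f3h leaf and 3 in WT leaf. HB1, a non-symbiotic haemoglobin, had 52421 counts in f3h root and 82574 in WT root, and 436 in f3h leaf where WT leaf had 0. PIN9, an auxin efflux carrier, had 2610 counts in f3h root and 8040 in WT root, with 0 in f3h leaf and 2 in WT leaf.

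In leaf, HD3A, the mobile flowering signal of rice, had 27 counts in f3h and 820 in WT. CPS2, a copalyl diphosphate synthase of phytoalexin synthesis, had 220 counts in f3h leaf and 3044 in WT leaf, with 30 in f3h root and 6 in WT root. KSL6 of the same list had 100 counts in f3h leaf and 1351 in WT leaf, and none in root. Of the 77 members that were not tested, 34 fell short in both leaf groups and 26 in both root groups. The like counts over all genes were not made, so this split says nothing particular about the lists.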
